A study of Homo sapiens with 6 samples.

Results

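The E2 ubiquitin-conjugating enzymes are the genes whose symbol begins with UBE2 followed by a letter, and 41 of the 26485 genes in the deposited table met this rule, which uses symbols and no measured value. The table comes from THP1 cells, a human acute monocytic leukemia line, and is RNA-seq of total RNA from 6 libraries, 3 from cells given WFA for 6 h and 3 from cells given its DMSO vehicle for 6 h. WFA is withaferin A, a plant steroidal lactone, and the study examined it as an inhibitor of the transcription factor MYB. All libraries come from 1 cell line with no genetic change made in either group. The labels give the WFA dose as 1 mM and the paper as 1 μM, and the paper's value is taken here.

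Ubiquitin is activated by an E1 enzyme, handed as a thioester to the catalytic cysteine of an E2, and transferred from the E2 to a substrate with the help of an E3 ligase. The E2 largely sets which lysine of ubiquitin is used when chains are built. Chains on lysine 48 mark proteins for the proteasome and chains on lysine 63 serve in signalling and DNA repair, while some E2 enzymes carry SUMO, NEDD8 or ISG15 in place of ubiquitin.

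The 6 coding stretches below belong to 3 E2 genes with larger rises and 2 with larger falls under WFA, and to UBE2A, the near-identical paralog of UBE2B. They were read from GENCODE 29 transcripts on GRCh38 and run 5′ to 3′ over the active site, with capitals on the codons of the histidine-proline-asparagine (HPN) motif and on the first cysteine codon after it.
UBE2H: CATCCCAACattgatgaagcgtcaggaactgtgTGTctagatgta
UBE2B: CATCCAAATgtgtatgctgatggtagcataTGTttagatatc
UBE2A: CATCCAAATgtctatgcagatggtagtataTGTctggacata
UBE2L6: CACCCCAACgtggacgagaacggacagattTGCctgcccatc
UBE2T: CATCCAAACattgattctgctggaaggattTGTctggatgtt
UBE2G1: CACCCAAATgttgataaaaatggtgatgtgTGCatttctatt
The HPN motif was present in 20 of the 32 tested E2 genes with a coding sequence. It was not found in UBE2E1, UBE2E2, UBE2E3, UBE2J1, UBE2J2, UBE2O, UBE2Q1, UBE2Q2, UBE2V1, UBE2V2, UBE2W or UBE2Z, of which UBE2V1 and UBE2V2 are known as variants without a catalytic cysteine.

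Total counts were between 11006035 and 13872810 per library. Of 10 monocytic markers all were tested, LYZ and CD68 had 1823 ± 278 and 281 ± 33.7 CPM (SD, n = 3) with DMSO, whereas CD14 and MPO had only 5.72 ± 1.89 and 2.46 ± 0.622 CPM (SD, n = 3), and 5 of the 10 fell and 1 rose with WFA. Of 10 markers of other cell types, 7 did not pass the filter on low counts, among them CD3E, MS4A1, EPCAM and KRT18, and HBB and HBA1 had no count in any library. COL1A1, which marks fibroblasts, rose from 0.453 ± 0.333 to 9.95 ± 2.27 CPM (SD, n = 3, adjusted p = 7.18e-08 from edgeR), PECAM1 fell by 0.28 on the log2 scale, and the part of these markers in the E2 results was not tested. In a bulk culture, fewer cells of a type and less RNA per cell cannot be told apart.

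With WFA, members of the E2 family changed in both directions, and their summed RNA overlapped between the groups. CPM below is the read count of a gene scaled to the library size, with TMM factors. The 41 genes together had 3260, 3293 and 3237 CPM in DMSO replicates 1 to 3 and 3373, 3327 and 3176 CPM in the WFA replicates, so the groups overlapped. Of the 33 E2 genes tested, 9 rose, 8 fell and 16 were not called at an adjusted p of 0.05 in edgeR's quasi-likelihood test. Among all 12854 genes tested, 25.8% were called higher, 24.7% lower and 50.5% in either direction. In this fit, the share of E2 genes called was thus close to the background. The median log2 fold change was -0.04 over the E2 genes and 0.02 over all genes tested. The background shares also apply to the partner lists below, in which 29 of 128 distinct genes tested rose and 36 fell. Scaling by total counts, in place of TMM, gave 4 E2 genes higher and 16 lower, and the replicate block gave 11 higher and 15 lower. The background of 50.5% belongs to the main fit only. Among all genes tested, total counts also gave fewer higher and more lower calls, and the block gave more calls in both directions. In both settings a larger share of E2 genes than of all genes was called, and this difference in share was not tested.

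The sizes set a few members apart from the other E2 genes. Only UBE2H and UBE2B, among the 33 tested, changed over 2-fold, both upward. The share of all tested genes that changed over 2-fold was not computed, so this count has no background beside it. UBE2L6 rose by 0.88 on the log2 scale, UBE2T and UBE2G1 fell by 0.54 and 0.53, and the other 12 called genes rose by 0.24 to 0.43 or fell by 0.27 to 0.49. The WFA and DMSO libraries did not overlap for 23 of the 33 E2 genes, 8 with all WFA libraries above and 15 with all below, whereas 58.1% of all tested genes did not overlap. Of those 23 genes, 7 were not called, and all 7 were lower in the WFA libraries. P-values of the main fit set a difference against the spread between libraries of a group, with the replicate block left out. With the block, 9 further E2 genes were called. An exact permutation test of 3 libraries against 3 cannot give a p under 0.1.

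**Figure D1:**
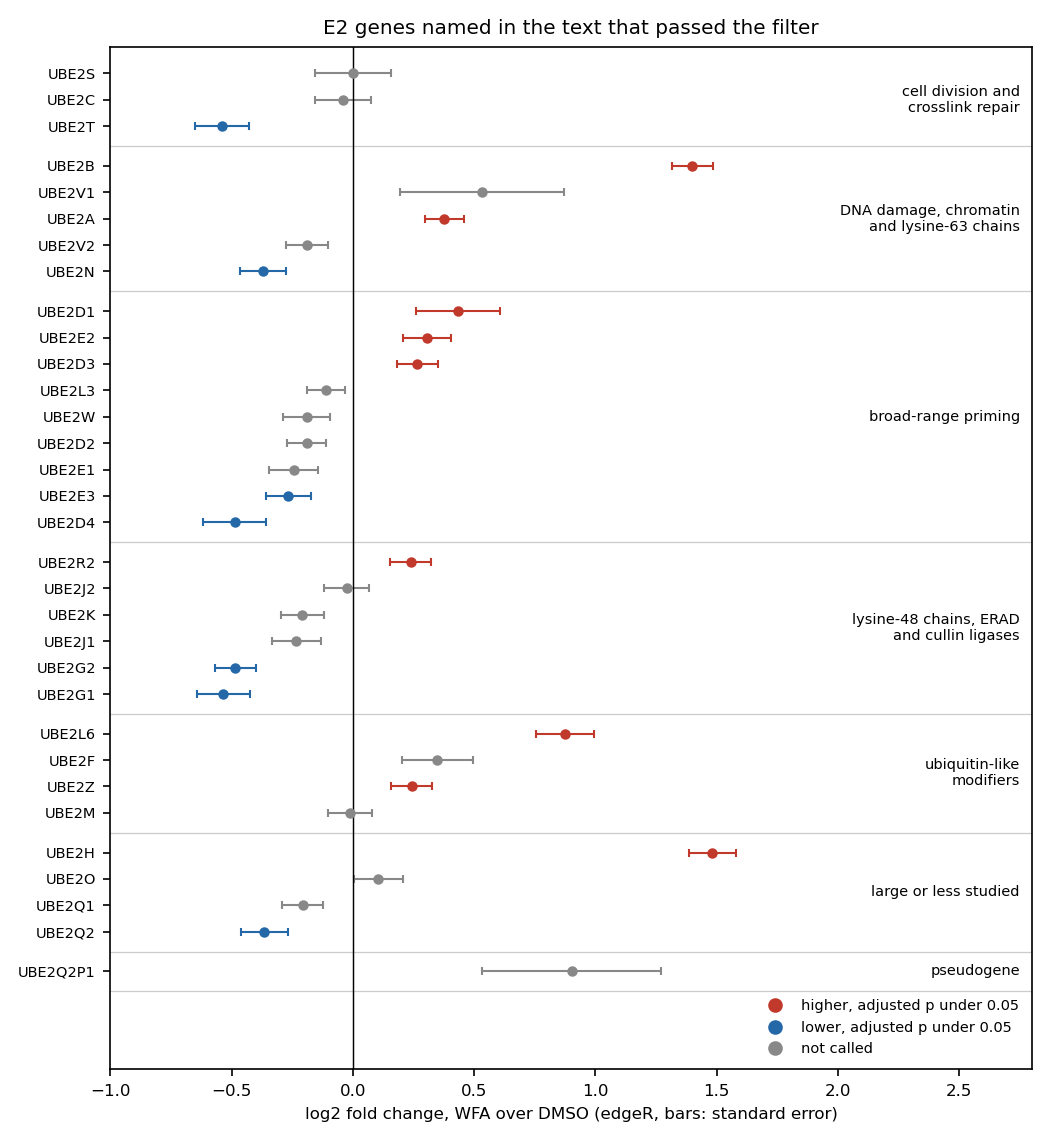
Log2 fold change of the tested E2 genes named in the text, WFA over DMSO, ordered by role, with bars for the standard error and colour for the edgeR call. UBE2H and UBE2B stand at 1.48 and 1.40, UBE2L6 at 0.88, and the other called genes lie between -0.54 and 0.43.

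UBE2H had the largest rise among the E2 genes. It is the E2 of the CTLH ligase, the human counterpart of the yeast GID complex, and lies on chromosome 7 (GRCh38, 129830732 to 129952949). UBE2H had 60.8, 61.8 and 65.3 CPM in DMSO replicates 1 to 3 and 170, 157 and 198 CPM in the WFA replicates. Every WFA library was above every DMSO library, with WFA replicate 3 the highest. The means were 62.6 ± 2.39 and 175 ± 21.1 CPM (SD, n = 3), a log2 fold change of 1.48 (SE 0.10, adjusted p in edgeR = 1.59e-08) or 2.79-fold. Of the 11 CTLH genes tested, 3 rose and 1 fell, with a median of 0.12. YPEL5, a subunit of that complex, rose by 1.05 (edgeR adjusted p = 2.13e-06) and WDR26, a scaffold subunit, by 0.44, whereas ARMC8 fell by 0.65.

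Among the E2 enzymes of DNA damage, chromatin and lysine 63 chains, UBE2B and UBE2A rose, UBE2N fell, and UBE2V1 and UBE2V2 were not called. UBE2A and UBE2B are the human counterparts of yeast RAD6, which ubiquitinates PCNA with RAD18, histone H2B with RNF20 and RNF40, and N-degron substrates with UBR ligases. UBE2B (chromosome 5, 134371179 to 134391992) had 65.8, 61.8 and 65.9 CPM in the DMSO replicates and 176, 176 and 159 CPM in the WFA replicates. The groups were far apart, and replicates within each group lay close together. The log2 fold change was 1.40 (SE 0.09, edgeR adjusted p = 7.26e-09) or 2.64-fold. UBE2A (chromosome X, 119574467 to 119591083) had 117, 128 and 120 CPM with DMSO and 162, 155 and 157 CPM with WFA, a log2 fold change of 0.38 (SE 0.08, adjusted p in edgeR = 0.00123). These groups did not overlap either, at a smaller distance.

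UBE2B and UBE2A code for proteins that are identical at 145 of 152 residues (95.4%), and the stretches of both genes given above begin at residue 78. Their coding sequences share no identical run longer than 25 bases, but how the counting treated reads that fit both genes is not given in the sources used here. UBE2B had 0.530 times the CPM of UBE2A with DMSO and 1.08 times with WFA. The log2 ratio of UBE2B to UBE2A was -0.83, -1.05 and -0.86 in the DMSO replicates and 0.12, 0.18 and 0.02 in the WFA replicates. It differed between groups by 1.02 (95% interval 0.79 to 1.25), and the exact permutation p was 0.1, the smallest possible.

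UBE2N, known as UBC13, builds lysine 63 chains together with UBE2V1 or UBE2V2. It fell from 148 ± 12.2 to 114 ± 9.62 CPM (SD, n = 3), a log2 fold change of -0.37 (adjusted p in edgeR = 0.00387). UBE2V2 had a log2 fold change of -0.19 and was not called (edgeR adjusted p = 0.0295 with the replicate block and 0.0345 without WFA replicate 1), although its WFA libraries were all below its DMSO libraries. DESeq2 with the block called UBE2V2 lower (adjusted p = 0.045). UBE2V1 had a log2 fold change of 0.53, was not called, and rests on only 9 to 22 counts per library. The readthrough gene TMEM189-UBE2V1, which covers the same locus, had no count in any library, and how reads shared with it were assigned is not given in the sources used here. Of 14 partner ligases of RAD6 and UBC13, 5 rose and 2 fell, with a median of 0.11. UBR2 rose by 1.12, TRAF2 by 1.14 and TRAF6 by 0.81, the last a partner of UBE2N in innate immune signalling. The DNA repair ligases SHPRH and HLTF fell by 0.66 and 0.39.

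**Figure D2:**
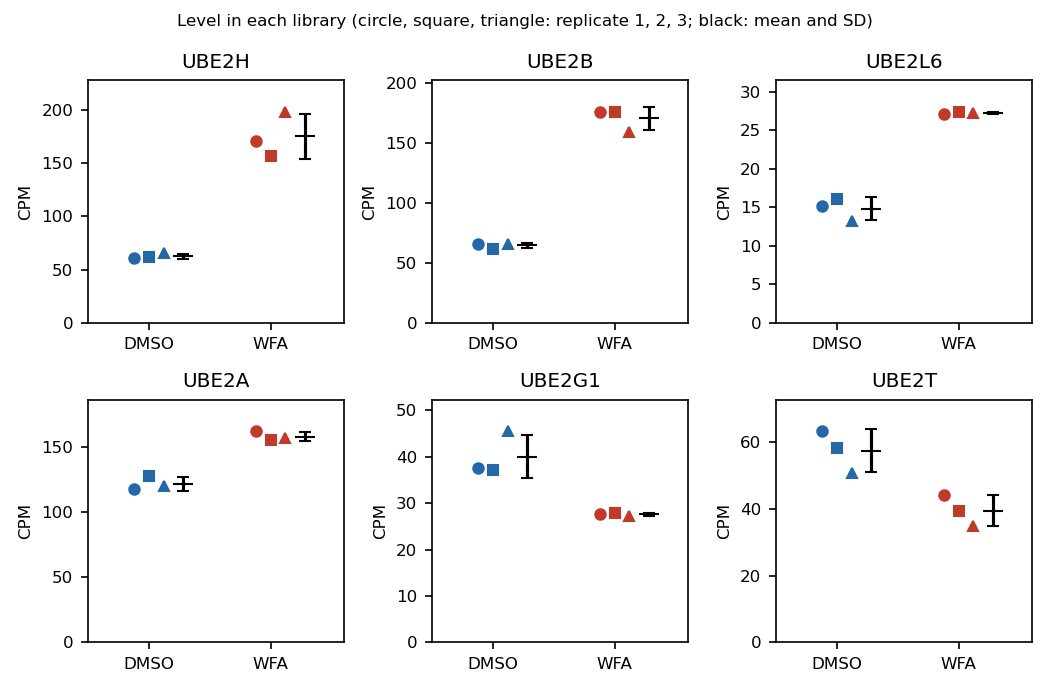
CPM in each library for the E2 genes named with full values, with points for replicates 1 to 3 of each group and black bars for the mean and SD. UBE2H and UBE2B lie between 60.8 and 65.9 CPM in the DMSO libraries and between 157 and 198 CPM in the WFA libraries.

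UBE2L6 was the only gene among the E2 enzymes for ubiquitin-like modifiers with a change over 0.5 on the log2 scale. It is the E2 that carries ISG15, an interferon-induced modifier, and lies on chromosome 11 (57551656 to 57568284). UBE2L6 had 15.1, 16.1 and 13.2 CPM in the DMSO replicates and 27.1, 27.4 and 27.2 CPM in the WFA replicates. The WFA libraries were almost equal and all above the DMSO libraries. The log2 fold change was 0.88 (SE 0.12, edgeR adjusted p = 2.30e-05) or 1.83-fold. Its modifier ISG15 had 2.55 ± 0.856 CPM with DMSO and 2.44 ± 0.536 CPM with WFA (SD, n = 3) and was not called. Of 6 ISG15 pathway genes tested, 2 fell in edgeR and 4 were not called. Those that fell were the deconjugating protease USP18 (-0.91) and HERC6 (-0.51). Both calls were lost in DESeq2.

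UBE2Z, which takes ubiquitin or FAT10 from UBA6, rose by 0.24 (edgeR adjusted p = 0.0240). The NEDD8 enzymes UBE2M and UBE2F had log2 fold changes of -0.01 and 0.35 and were not called (UBE2F had edgeR adjusted p = 0.0116 with the replicate block, 0.0428 without DMSO replicate 2 and 0.0410 without WFA replicate 1). The readthrough gene UBE2F-SCLY had at most 1 count in a library. How reads shared between it and UBE2F were assigned is not given in the sources used here. Of 8 SUMO ligases, 5 rose and 1 fell, with a median of 0.36. PIAS3 rose by 0.68, NSMCE2 by 0.56 and PIAS2 by 0.40, whereas the nucleoporin RANBP2 fell by 0.26 with overlapping groups. Of 13 genes that act with UBE2M and UBE2F, 6 fell and 1 rose, with a median of -0.06. CUL1, the cullin of SCF ligases, fell by 1.05, the NEDD8 ligase subunit DCUN1D5 by 0.71 and CUL3 by 0.37, while DCUN1D2 rose by 0.54.

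The E2 enzymes of cell division and crosslink repair differed from each other. UBE2T, which monoubiquitinates FANCD2 and FANCI with the Fanconi ligase FANCL, lies on chromosome 1 (202331657 to 202341980). UBE2T had 63.2, 58.3 and 50.6 CPM in the DMSO replicates and 44.0, 39.5 and 34.9 CPM in the WFA replicates. All WFA libraries were below all DMSO libraries. The log2 fold change was -0.54 (SE 0.11, edgeR adjusted p = 0.000976). Of the 10 Fanconi genes tested, 6 fell and 4 were not called, with a median of -0.42. FANCE fell by 0.86, FANCF by 0.66 and FANCD2 by 0.52, and FANCL, named after its value was seen, by 0.46.

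UBE2C, which starts chains for the anaphase-promoting complex (APC/C), and UBE2S, which extends them on lysine 11, were not called. UBE2C had 42.0, 40.9 and 44.6 CPM in the DMSO replicates and 34.1, 43.4 and 46.6 CPM in the WFA replicates. UBE2S had 28.9, 26.6 and 27.7 CPM with DMSO and 19.7, 32.9 and 30.8 CPM with WFA. WFA replicate 1 was the lowest of all 6 libraries for both genes, and the other WFA libraries overlapped or exceeded the DMSO range. The log2 fold changes were -0.04 and 0.00, and 0.08 and 0.20 without WFA replicate 1. Of the 17 APC/C genes tested, 10 fell and 1 rose, with a median of -0.29. The APC/C inhibitor FBXO5 fell by 1.04, ANAPC1 by 0.99 and ANAPC4 by 0.92, whereas ANAPC16 rose by 0.45.

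The E2 enzymes of lysine 48 chains, endoplasmic reticulum-associated degradation (ERAD) and cullin ligases were lower or not called except for UBE2R2. UBE2G1, which extends lysine 48 chains on substrates of cullin ligases, lies on chromosome 17 (4269259 to 4366628). It had 37.5, 37.1 and 45.5 CPM in the DMSO replicates and 27.6, 27.9 and 27.3 CPM in the WFA replicates. The groups did not overlap, and DMSO replicate 3 was the highest library. The log2 fold change was -0.53 (SE 0.11, edgeR adjusted p = 0.000841). UBE2G2, an ERAD enzyme on chromosome 21 (44768580 to 44802019), fell from 151 ± 1.41 to 108 ± 8.28 CPM (SD, n = 3), a log2 fold change of -0.48 (adjusted p in edgeR = 0.000240). The log2 ratio of UBE2G1 to UBE2G2 differed between groups by -0.04 (95% interval -0.30 to 0.21).

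The membrane-bound ERAD enzymes UBE2J1 and UBE2J2 had log2 fold changes of -0.23 and -0.03, and UBE2K, which forms lysine 48 chains without a ligase, had -0.21, and none of these was called. UBE2J1 had an edgeR adjusted p of 0.00552 with the replicate block and 0.0262 without WFA replicate 1, and for UBE2K these values were 0.0158 and 0.0207. DESeq2 called both lower, with adjusted p-values of 0.0419 for UBE2J1 and 0.0484 for UBE2K (0.0132 and 0.0407 with the block). UBE2R2, an E2 of SCF ligases, rose by 0.24 (edgeR adjusted p = 0.0278). Its close relative CDC34 rose by 0.31 and the autophagy enzyme ATG3 fell by 0.31, the only calls among 8 E2-fold genes without a UBE2 symbol, and the call of CDC34 was lost in DESeq2. Of 10 ERAD ligases and factors tested, 5 rose and 1 fell, with a median of 0.31. RNF185 rose by 1.08 and SYVN1 by 0.82, whereas RNF139 fell by 0.39.

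Among the broad-range E2 enzymes, which place the first ubiquitin for many ligases, members of one subfamily moved in different directions. UBE2D3 rose from 307 ± 9.91 to 370 ± 17.5 CPM (SD, n = 3), a log2 fold change of 0.27 (adjusted p in edgeR = 0.0159). UBE2D1 had 11.7, 7.58 and 10.1 CPM with DMSO and 14.2, 14.3 and 11.1 CPM with WFA, overlapping groups that edgeR called higher at 0.43 (adjusted p = 0.0485). UBE2D4 fell from 24.6 ± 3.40 to 17.6 ± 1.33 CPM (SD, n = 3), a log2 fold change of -0.49 (adjusted p in edgeR = 0.00580). UBE2D2 had a log2 fold change of -0.19 and was not called (edgeR adjusted p = 0.0367 with the replicate block). The proteins of UBE2D2 and UBE2D3 are identical at 142 of 147 residues and their coding sequences share a run of 80 bases, so part of their reads may have been assigned to either gene.

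Of the UBE2E enzymes, UBE2E2 rose by 0.31 (edgeR adjusted p = 0.0188), UBE2E3 fell by 0.27 (edgeR adjusted p = 0.0270), and UBE2E1 had a log2 fold change of -0.24 and was not called. UBE2E1 had an edgeR adjusted p of 0.00421 with the replicate block and 0.00925 without WFA replicate 2. DESeq2 called UBE2E1 lower (adjusted p = 0.0439, and 0.0159 with the block). UBE2W, which ubiquitinates the N terminus of proteins, had a log2 fold change of -0.19 and was not called (edgeR adjusted p = 0.0349 with the replicate block). UBE2L3, the E2 of the linear chain ligase and of the RING-between-RING (RBR) ligases, had a log2 fold change of -0.11 and was not called. Of 13 genes tested for RBR ligases, a list that also holds the partner subunit SHARPIN, 5 rose and 1 fell, with a median of 0.26. RNF216 rose by 0.67, ARIH1 by 0.40 and RNF14 by 0.29, whereas RNF144A fell by 0.38.

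The larger and less studied E2 genes other than UBE2H changed little. UBE2Q2 fell from 59.6 ± 3.79 to 46.3 ± 3.66 CPM (SD, n = 3), a log2 fold change of -0.36 (adjusted p in edgeR = 0.00549). UBE2Q1 and UBE2O, a large enzyme that acts as both E2 and E3, had log2 fold changes of -0.21 and 0.10 and were not called (UBE2Q1 had edgeR adjusted p = 0.0183 with the replicate block and 0.0369 without WFA replicate 3). DESeq2 called UBE2Q1 lower (adjusted p = 0.029, and 0.018 with the block). The pseudogene UBE2Q2P1 had 13, 17 and 13 counts with DMSO and 27, 13 and 33 counts with WFA, and its log2 fold change of 0.90 was not called (edgeR adjusted p = 0.0542, 0.00721 with the replicate block and 0.00593 without WFA replicate 2). Its reads and those of UBE2Q2 may be shared. UBE2QL1, UBE2U, UBE2DNL and UBE2Q2P2 had no count in any library. UBE2E4P, UBE2MP1, UBE2NL and UBE2Q2L had at most 3 counts in a library and were not tested. The library kit does not mark strand, so reads of a gene and its antisense partner cannot be told apart, and the antisense genes UBE2E1-AS1 and UBE2Q1-AS1 had at most 1 and 6 counts in a library.

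Of the 17 called genes, 11 were called in all 15 alternative analyses, 4 as higher (UBE2A, UBE2B, UBE2H and UBE2L6) and 7 as lower, among them UBE2D4, UBE2G1, UBE2G2, UBE2N, UBE2Q2 and UBE2T. The other 6 lost their call in at least 1 alternative. UBE2D1 was not called in DESeq2 (adjusted p = 0.0911), in DESeq2 with the replicate block (0.113), with RLE factors (0.0559 in edgeR) or with total counts (0.109 in edgeR). UBE2Z was not called in DESeq2 (adjusted p = 0.0525), in DESeq2 with the replicate block (0.0512), with total counts (0.140 in edgeR) or with no filter (0.0530 in edgeR). Total counts also ended the calls of UBE2R2, UBE2D3 and UBE2E2 (adjusted p in edgeR 0.139, 0.0780 and 0.0734), and no filter that of UBE2R2 (0.0550). Calls were lost without single libraries as well. UBE2D1 had edgeR adjusted p-values of 0.229, 0.0838, 0.137 and 0.131 without DMSO replicate 2, DMSO replicate 3, WFA replicate 1 and WFA replicate 2. UBE2D3 reached 0.0502 without DMSO replicate 2 and 0.0501 without WFA replicate 1, and UBE2E2 had 0.0740, 0.0556 and 0.0565 without DMSO replicate 3, WFA replicate 1 and WFA replicate 2. UBE2R2 lost its call without any of the DMSO replicates 1, 2 and 3 (edgeR adjusted p = 0.0520, 0.0847 and 0.0836) and without WFA replicate 1 (0.0956). UBE2Z lost it without DMSO replicates 1 or 2 (0.0868 and 0.0914) and WFA replicate 3 (0.0763), and UBE2E3 without DMSO replicates 1 or 2 (0.0629 and 0.0803) and WFA replicate 3 (0.0901).

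Related E2 genes were compared through the log2 ratio of their CPM within each library, for 17 pairs. Those within UBE2D and within UBE2E share members. The ratio did not overlap between the groups in 11 pairs, for which the exact permutation p was 0.1 (0.155 after Benjamini-Hochberg adjustment over the 17 pairs), so no pair could pass the threshold in that test. The adjusted p from limma, fitted over the 17 pairs and given as a description, was under 0.05 for 8 pairs and for 7 with the replicate block, where that of UBE2D1 to UBE2D2 went from 0.0122 to 0.0681. After the pair UBE2B and UBE2A, the larger differences were 0.99 for UBE2L6 to UBE2L3 (95% interval 0.78 to 1.21), 0.93 for UBE2D1 to UBE2D4 (0.67 to 1.19), 0.81 for UBE2V1 to UBE2V2 (0.05 to 1.58), which rests on the few counts of UBE2V1, and 0.75 for UBE2D3 to UBE2D4 (0.49 to 1.00). UBE2L6 was at 0.108 times the CPM of UBE2L3 with DMSO and at 0.215 times with WFA. The ratio of UBE2E1 to UBE2E2 differed by -0.56 (-0.79 to -0.32) and that of UBE2D2 to UBE2D3 by -0.46 (-0.67 to -0.24). The differences for UBE2E1 to UBE2E3 (0.01, -0.22 to 0.25) and UBE2C to UBE2S (-0.02, -0.29 to 0.26) had intervals around 0, which still allow changes of about that width.

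**Figure D3:**
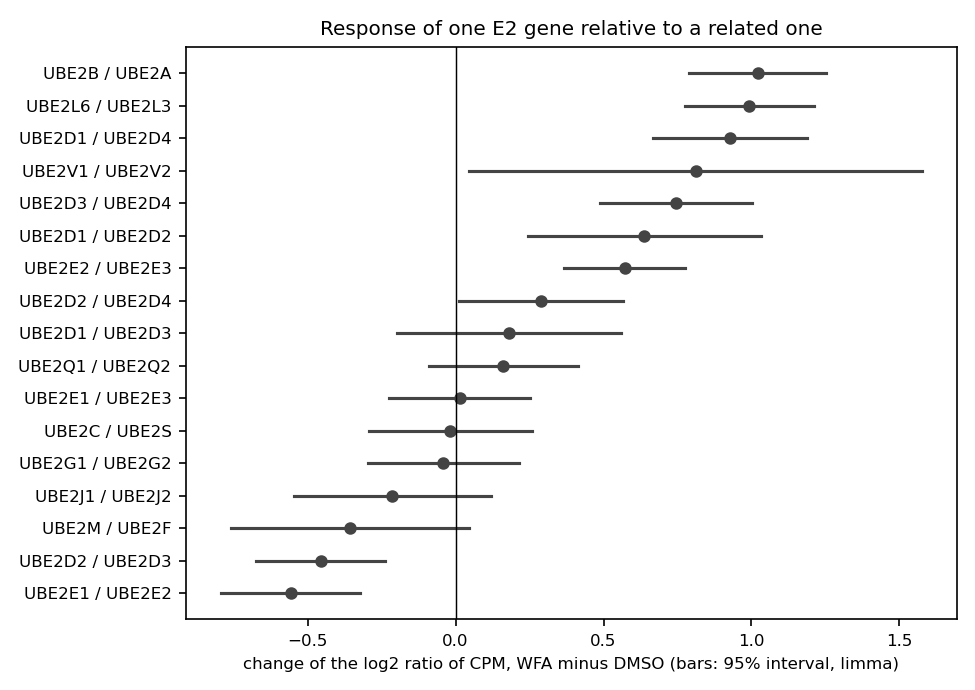
Difference between WFA and DMSO in the log2 ratio of CPM for 17 pairs of related E2 genes, with 95% intervals from limma. The pairs UBE2B to UBE2A and UBE2L6 to UBE2L3 lie at 1.02 and 0.99, and 10 of the 17 intervals leave out 0.

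Divided by the length of their exons in GENCODE 29, E2 genes spanned a wide range of levels. With DMSO, UBE2E1 was highest at 83.4 ± 3.80 CPM per kb (SD, n = 3), followed by UBE2Q1 (78.0 ± 3.68) and UBE2J1 (71.2 ± 3.13). For these 3 genes, neighbours in the order overlapped within 1 SD. UBE2B moved from rank 17 of 33 (25.6 ± 0.946 CPM per kb) to rank 3 (67.7 ± 3.86), where it did not differ beyond the spread from UBE2D3 (68.9 ± 3.25) and UBE2Q1 (67.6 ± 3.55). UBE2H moved from rank 24 to rank 12 and UBE2L6 from 27 to 23, while UBE2G2 moved from rank 8 to 15 and UBE2T from 4 to 8. The annotation used for counting is not given in the sources used here, so these lengths may differ from those of the counted exons.

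The enzymes and modifiers upstream of the E2 step moved as follows. Of 9 genes for E1 activating enzymes, 4 fell and 5 were not called, with a median of -0.19. The NEDD8 E1 subunit NAE1 fell by 0.38 and the SUMO E1 subunit UBA2 by 0.33. Of 11 modifier genes tested, 3 rose and 1 fell, with a median of 0.13. The polyubiquitin gene UBB rose from 313 ± 33.7 to 719 ± 44.9 CPM (SD, n = 3), and SUMO3 fell by 0.47. These lists were written from general knowledge and describe counts only.

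**Figure D4:**
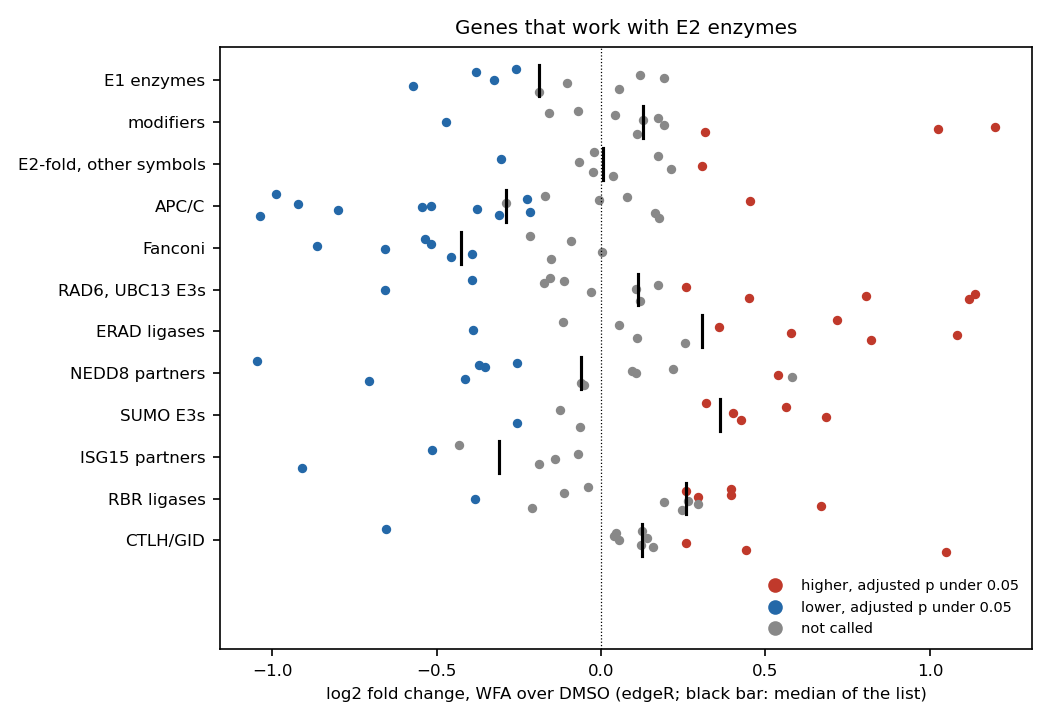
Log2 fold change, WFA over DMSO, of each tested gene on the lists of E1 enzymes, modifiers and E2 partners, coloured by edgeR call, with a black bar at the median of each list. Medians run from -0.42 for the Fanconi genes to 0.36 for the SUMO ligases, and UBB lies at 1.20.

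RefSeq promoters on GRCh38.p14, from 250 bases before to 50 after a start, were found for 27 of the 41 E2 genes, with 39 entries. Tested genes without an entry included UBE2B, UBE2C, UBE2H, UBE2Q1, UBE2Q2P1, UBE2V2 and UBE2W. The heat shock element, searched as GAANNTTC or TTCNNGAA, was in 1 of the 39 entries and in 13.5% of 35116 promoters. The antioxidant response element TGACNNNGC was in 5 of 39 and 13.3% of all, the E-box CACGTG in 0 of 39 and 7.26%, the cell cycle element TTTGAA, known as CHR, in 3 of 39 and 15.2%, and CCAAT in 11 of 39 and 34.6%, all on both strands. The entry with the heat shock element was that of UBE2G2, which fell, and UBE2T, UBE2F and UBE2U had a CHR match. The promoters of UBE2T (chr1:202341887-202342186, minus strand) and UBE2G2 (chr21:44801771-44802070, minus strand) are shown as the E2 genes that fell and hold a CHR or heat shock match, with the matches in capitals.
UBE2T: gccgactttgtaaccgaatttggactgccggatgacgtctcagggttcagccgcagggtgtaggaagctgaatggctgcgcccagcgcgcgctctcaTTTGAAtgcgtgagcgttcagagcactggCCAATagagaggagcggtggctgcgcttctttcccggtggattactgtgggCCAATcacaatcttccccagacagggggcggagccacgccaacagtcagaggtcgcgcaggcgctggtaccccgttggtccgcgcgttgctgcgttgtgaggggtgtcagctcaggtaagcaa
UBE2G2: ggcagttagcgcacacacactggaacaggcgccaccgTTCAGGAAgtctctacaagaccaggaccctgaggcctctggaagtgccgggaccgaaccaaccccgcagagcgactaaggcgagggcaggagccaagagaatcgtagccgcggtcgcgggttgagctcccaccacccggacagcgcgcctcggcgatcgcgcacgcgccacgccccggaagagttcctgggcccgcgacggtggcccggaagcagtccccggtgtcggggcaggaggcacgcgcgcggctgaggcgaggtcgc
In the UBE2T promoter the capitals mark 1 CHR and 2 CCAAT matches, and in that of UBE2G2 the single heat shock match. A match of letters is not a bound site, and promoters of UBE2A, UBE2L6 and UBE2G1 held no heat shock or CHR match.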

How the data were processed

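RNA-seq of 6 libraries, 3 per group, was analysed from the counts of reads per gene that the authors deposited without normalization. The authors also deposited a scaled score per library, a normalized count rounded to whole numbers, and columns of their own comparison (fold changes, p-values, adjusted p-values, dispersions), none of which was used. The submitters' processing notes name bcl2fastq 2.19, Trimmomatic, Bowtie2, Picard, featureCounts, DESeq2 and the build hg38. The annotation, the strand setting and the treatment of multiply mapped reads are not given in the sources used here. Of the 26485 gene names, 28 look like dates and were kept as given.

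All genes were fitted with edgeR 4.0.16 in R 4.3.3 (TMM, filterByExpr with a minimum count of 10, quasi-likelihood test without a block), with Benjamini-Hochberg adjustment over 12854 genes. A gene was called at an adjusted p under 0.05. CPM used the TMM factors. Ratios of related genes used log2 CPM without a pseudocount and limma 3.58.1 for their intervals, and exact permutation tests were two-sided. Alternatives were DESeq2 1.42.0, the replicate block, other scalings and filters, a robust fit and leaving out each library. Gene places and coding sequences came from GENCODE 29 by symbol for 40 of the 41 members, and promoters from RefSeq on GRCh38.p14.

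Members, gene lists and tests were chosen with earlier results of these data known. Members are named one by one, with full values for called members with an absolute log2 fold change of 0.5 or more, with UBE2A added as paralog. Of each list, up to 3 called genes with the smallest p and up to 2 called against the list's median are named. Some genes that these rules select are not reported here. Replicate numbers come from the labels, where same-numbered libraries share a code, and the methods give 3 independent experiments. The deviations from the group means correlated over genes between libraries of equal number (r = 0.22, 0.33 and 0.25), and between other libraries r was -0.26 to 0.00, so the numbers were taken to pair the libraries. The main fit and the pair intervals left this pairing out, and it was used as an alternative. With it, edgeR called 9 further E2 genes. Depth limits precision, and a count of 0 allows up to 3 counts, for counting error only.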

Additional observations from a re-analysis of the deposited data

How the results depend on the processing

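Total-count scaling moved the median of all tested genes from 0.02 to -0.06 and the E2 calls to 4 higher and 16 lower, and the replicate block gave 15 lower, as against 13 in DESeq2 with the block. DESeq2 without the block gave 7 higher and 12 lower, with UBE2E1, UBE2J1, UBE2K and UBE2Q1 as added calls. In DESeq2, with and without the block, the share of E2 genes called was above that of all genes tested, a difference that was not tested. With the block in edgeR, 9 further E2 genes were called (2 higher, 7 lower), and it ended or turned no call of an E2 gene. Leaving out 1 library gave 6 to 8 E2 genes higher and 7 to 11 lower, and fewer calls in both directions among all genes tested. The direction of uncalled genes near 0 turned. UBE2S was at -0.023 with the block, -0.020 in DESeq2, -0.048 in DESeq2 with the block, -0.012 with RLE factors, -0.083 with total counts, -0.013 with no filter and between -0.14 and 0.20 without 1 library. Without 1 library UBE2C ranged from -0.13 to 0.084, UBE2J2 from -0.057 to 0.032 and UBE2M from -0.068 to 0.050, and UBE2M was at 0.0020 with the stricter filter (minimum count 50). Among the partner lists, E1 genes higher numbered 1 with the block and 0 to 1 without 1 library. E2-fold genes higher numbered 2 with the block and 0 in DESeq2, DESeq2 with the block, total counts and no filter, and without 1 library 0 to 1 were higher and 0 to 1 lower. NEDD8 partners higher numbered 3 with the block, 2 with no filter and 1 to 3 without 1 library. SUMO ligases lower numbered 0 with the stricter filter and 0 to 1 without 1 library. ISG15 genes lower numbered 0 in DESeq2 with and without the block, 1 with the stricter filter and 0 to 1 without 1 library. RBR genes higher numbered 8 with the block, 2 with total counts and 3 to 5 without 1 library, with 3 without DMSO replicate 1, and those lower numbered 0 in DESeq2 with the block, 2 with total counts and 0 to 1 without 1 library. The causes were not tested. Of 119 recomputed pair differences, 4 had another sign, all in pairs near 0. For each of the 17 pairs, 1 of these was the fit with the replicate block, which leaves the difference unchanged in this balanced design. Only the differences without 1 library could turn. At 9 to 33 counts per library, UBE2V1 and UBE2Q2P1 show only large changes.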
